A study of Mus musculus with 8 samples.

Results

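The regions described here are the autosomal promoters of wild-type pachytene spermatocytes (PS) that carried acetylated histone H3 lysine 27 (H3K27ac) and still carried it in round spermatids (RS). They were chosen from the deposited H3K27ac enriched intervals of chromosomes 1 to 19. Intervals of the 2 PS samples were merged, and a merged region was retained if both samples contributed to it; the same was done for the 2 RS samples. A PS region was classed by the annotation of its most enriched interval, and a promoter region was counted as kept if an RS region shared at least 1 bp with it. By this rule 10004 of 11590 autosomal PS promoter regions were kept (86.3%), which made up 38.0% of all 26333 autosomal PS regions, and they named 10728 genes. The H3K27ac values of PS and RS thus selected the regions, and their differences between the stages are given as a description without a test. The RNA levels were not used in the selection.

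H3K27ac was measured by ChIPmentation, a form of ChIP-seq in which a transposase adds the sequencing adapters, in PS and RS purified by BSA gravity sedimentation from testes of adult C57BL/6 mice that the labels call wild type. RNA-seq was performed on PS and RS of Rnf8- and Scml2-double knockout (dKO) adult males on the same background, lacking the autosomal ubiquitin ligase gene Rnf8 and the X-linked Polycomb gene Scml2, with a purification scaled down to a single mouse. There were 2 samples for each stage and assay, 8 in all. Wild-type RNA was not analysed here, so in every pairing of the 2 measurements the genotype and the assay cannot be told apart. The labels call the 2 samples of each group biological replicates. The p-values given for RNA rest only on the spread between such samples, with the variance of a gene estimated partly from the other genes tested.

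H3K27ac is deposited by the acetyltransferases CBP and p300 and removed by histone deacetylases, and it marks active promoters and enhancers. PS are meiotic cells in which homologous chromosomes are synapsed and recombine, and RS are the haploid cells that follow the meiotic divisions. RS build the acrosome and the tail and express the transition proteins and protamines that later replace histones in the sperm head. The same promoter can therefore serve a gene used in meiosis, a gene used after it, or a gene used in both.

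The promoters of 8 genes with kept regions are shown first, because the later results turn on them. Each is the 250 bases before the RefSeq start of the gene on the gene's own strand, 5′ to 3′, in the build GRCm38.p6, which is the mm10 assembly of the deposited intervals. Capitals mark letters of 4 searched motifs on either strand, namely the GC box (GGGCGG), the CCAAT box (CCAAT), a MYB motif (GGCNGTT) and a YY1 motif (AAGATGGC). Hnrnpf had the kept region with the highest mean log2 fold enrichment over the 4 samples and lies at chr6:117906532-117906781 on the plus strand. Odf2, a sperm tail gene, lies at chr2:29889470-29889719 on the plus strand, and Prm1, which encodes protamine 1, at chr16:10796824-10797073 on the minus strand. Fhl5, which encodes a testis coactivator of CREM, lies at chr4:25242853-25243102 on the minus strand, and Rec8, a meiotic cohesin gene, at chr14:55617916-55618165 on the plus strand. Piwil1, Tdrd1 and Pou5f2, whose RNA fell, lie on the plus strand at chr5:128735996-128736245, chr19:56826025-56826274 and chr13:78024652-78024901.
Hnrnpf: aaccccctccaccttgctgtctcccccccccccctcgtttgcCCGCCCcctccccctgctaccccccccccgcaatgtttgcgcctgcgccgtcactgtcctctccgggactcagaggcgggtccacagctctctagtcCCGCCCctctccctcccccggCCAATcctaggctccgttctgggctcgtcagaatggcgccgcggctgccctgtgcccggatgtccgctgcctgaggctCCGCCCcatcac
Odf2: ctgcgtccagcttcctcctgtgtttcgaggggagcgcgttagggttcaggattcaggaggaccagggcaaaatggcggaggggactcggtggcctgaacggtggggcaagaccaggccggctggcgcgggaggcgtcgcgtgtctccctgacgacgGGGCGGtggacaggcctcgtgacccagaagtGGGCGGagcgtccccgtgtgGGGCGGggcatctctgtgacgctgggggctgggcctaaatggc
Prm1: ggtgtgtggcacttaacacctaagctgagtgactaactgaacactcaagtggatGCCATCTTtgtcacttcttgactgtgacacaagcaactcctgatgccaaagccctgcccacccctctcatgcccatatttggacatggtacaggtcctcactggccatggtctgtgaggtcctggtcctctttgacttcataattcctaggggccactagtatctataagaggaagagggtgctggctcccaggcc
Fhl5: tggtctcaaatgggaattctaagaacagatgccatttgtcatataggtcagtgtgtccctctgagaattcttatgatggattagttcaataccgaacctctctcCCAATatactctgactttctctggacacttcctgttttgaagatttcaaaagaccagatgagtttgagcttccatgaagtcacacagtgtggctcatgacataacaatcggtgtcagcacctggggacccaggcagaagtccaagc
Rec8: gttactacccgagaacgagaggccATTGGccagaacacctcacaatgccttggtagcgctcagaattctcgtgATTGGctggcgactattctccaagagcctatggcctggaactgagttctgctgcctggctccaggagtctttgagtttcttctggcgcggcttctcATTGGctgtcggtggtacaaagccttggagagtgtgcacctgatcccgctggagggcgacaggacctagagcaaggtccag
Piwil1: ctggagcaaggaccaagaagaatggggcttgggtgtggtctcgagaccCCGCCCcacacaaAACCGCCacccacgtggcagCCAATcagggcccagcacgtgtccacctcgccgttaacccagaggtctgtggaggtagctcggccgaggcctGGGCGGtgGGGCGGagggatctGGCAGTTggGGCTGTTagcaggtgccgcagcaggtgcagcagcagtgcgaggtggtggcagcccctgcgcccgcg
Tdrd1: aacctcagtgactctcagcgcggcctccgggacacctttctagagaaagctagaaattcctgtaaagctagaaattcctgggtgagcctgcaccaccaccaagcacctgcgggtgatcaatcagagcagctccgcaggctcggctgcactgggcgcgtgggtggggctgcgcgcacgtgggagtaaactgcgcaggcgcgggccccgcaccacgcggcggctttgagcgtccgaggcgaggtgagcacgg
Pou5f2: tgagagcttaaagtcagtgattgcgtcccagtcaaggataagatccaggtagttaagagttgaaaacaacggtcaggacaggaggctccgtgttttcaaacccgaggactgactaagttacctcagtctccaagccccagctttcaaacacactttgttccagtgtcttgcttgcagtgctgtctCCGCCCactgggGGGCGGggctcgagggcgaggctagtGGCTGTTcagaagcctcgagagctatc
The promoter of Prm1 held no CpG dinucleotide in these 250 bases and that of Fhl5 held 2, while that of Odf2 held 22 and that of Hnrnpf 18. Piwil1 had 3 matches to the MYB motif and Pou5f2 had 1. No searched motif was found in these letters of Tdrd1.

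The H3K27ac lists held 38519 and 46177 autosomal intervals in PS and 72928 and 44726 in RS, and fold enrichment was the pileup of fragments over a background of 0.723 to 1.46 fragments in each sample. A single fragment was therefore worth 0.407 to 0.581 of fold enrichment, and the second sample of each stage was the more coarsely measured. The RNA samples had 9655405 to 12289694 reads on genes. In the dKO, reads on Rnf8 numbered 93 and 110 in PS and 61 and 50 in RS, and those on Scml2 numbered 40 and 92 in PS and 44 and 98 in RS, so reads from both mutated genes remained, and with no wild-type RNA at hand these counts do not check the labels. The summed level of 9 PS markers was 5098 and 5012 CPM (reads scaled to the library total) in PS and 2304 and 2449 in RS, and that of 10 RS markers was 449 and 718 CPM in PS and 9933 and 10372 in RS, so each fraction also held RNA of the other stage's markers, whose part in the results was not tested. In bulk cells of this kind, a smaller number of cells of one type and less RNA per cell cannot be told apart. Of the other cell types, 7 Leydig cell markers summed to 835 and 578 CPM in PS and to 69.0 and 47.4 in RS. The other sums were 51.5 to 106 CPM for 8 spermatogonial markers, 61.0 to 160 for 8 Sertoli cell markers, 7.35 to 12.4 for 3 peritubular markers and 2.49 to 37.4 for 6 blood and macrophage markers, of which the 3 hemoglobin genes were at 0 in all samples. None of the Leydig, peritubular or blood markers was the gene of a kept promoter region, and of 26 listed somatic genes only 1 was. Leaving out all somatic genes could therefore change the counts of RNA calls below by at most 1 gene. It does not measure somatic RNA of the genes that remained, whose part was not tested.

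Promoters were the class of PS region most often kept. The share overlapped by an RS region was 86.3% for promoter regions, 64.5% for exonic, 60.8% for upstream, 56.1% for intronic and 53.0% for intergenic regions. Among promoters the share followed the strength in PS. Of the weakest quartile, with fold enrichments of 3.29 to 7.66, 55.9% were kept, against 91.2%, 98.8% and 99.5% in the next quartiles, the last of which reached 62.6. The share of the weakest quartile lay within the range of the other classes. Kept regions outside promoters were weaker, with PS medians of 5.76 and 6.03 against 16.5 and 17.5 for kept promoters. Class and strength were thus not separated, and classes were not compared at like strength. By chromosome the kept share of promoter regions lay between 82.1% on chromosome 18 and 88.4% on chromosome 1.

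**Figure D1:**
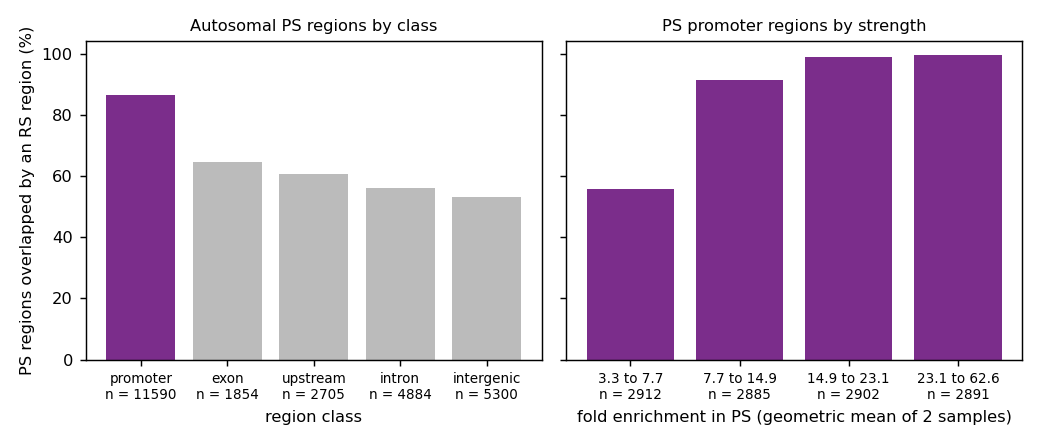
Share of autosomal PS H3K27ac regions overlapped by an RS region, in percent. On the left the regions are split by class and on the right PS promoter regions are split into quartiles of their fold enrichment in PS. Promoters stand at 86.3% and the other classes between 53.0% and 64.5%, and the promoter share goes from 55.9% in the weakest quartile to 99.5% in the strongest.

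Kept promoters were strong and broad in PS. Their median fold enrichment was 16.5 and 17.5 in the 2 PS samples and 15.1 and 11.6 in the 2 RS samples, where the 1586 promoter regions that were not kept had 5.35 and 5.48 in PS. The 699 promoter regions that RS had without a PS region were about as weak, at 5.70 and 5.22 in RS. The median width of the kept regions was 1843 bp in PS, with 5% of them under 469 bp and 5% over 3632 bp, against 644 bp for promoter regions not kept. Of the kept regions 8960 (89.6%) covered the deposited start site of their gene, whereas 841 (53.0%) of those not kept did so.

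In RS the regions were mostly of similar or greater width and of the same class. The median width of the matching RS region was 2166 bp, and 6651 kept regions (66.5%) were wider in RS while 3346 were narrower. Exactly 1 RS region lay over 9679 of them and more than 1 over 325, and the RS region was itself classed as a promoter for 9970 (99.7%). A broad RS region could cover several PS regions: 1658 kept promoters (16.6%) shared theirs with another PS region and so took the value of the same RS summit. For those that shared none, the median width went from 1860 bp in PS to 1997.5 bp in RS.

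Replicates of a stage resembled each other more than the stages did. Across the kept regions the log2 fold enrichment of the 2 PS samples had a Pearson's r of 0.956 with a median difference of 1.14-fold, and that of the 2 RS samples an r of 0.933 with 1.28-fold. Between a PS and an RS sample, r was 0.505 to 0.540. These correlations run across regions that share their libraries, and regions are not independent replicates.

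The level of H3K27ac was lower in RS at most kept promoters and higher at a separate minority. The median change of log2 fold enrichment from PS to RS was -0.39, and it was -0.16, -0.26, -0.50 and -0.61 in the 4 pairings of a PS with an RS sample. The difference between the 2 RS samples, with a median of -0.35, was nearly as large as this. Both RS samples were below both PS samples at 5610 kept promoters (56.1%), where the same held for 39.5% of all kept autosomal regions. Both RS samples were above both PS samples at 1787 (17.9%), against 40.8% of all kept autosomal regions, and the samples of the stages overlapped at 2607. These counts come from the contrast that chose the regions, and are given as a description. The second RS sample, the more weakly enriched, set the count of higher regions, which was 2993 without it. With each sample centred on the median of all kept regions, which moved the change by 0.305, 1355 were higher and 7676 lower and the median change was -0.70. Kept regions outside promoters lay the other way, with 68.1% higher and 19.7% lower in RS and a median change of 0.99.

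The distribution of the change had 2 humps. Most kept promoters lay around the median, and a smaller group of 1067 (10.7%) had a change of at least 0.8 on the log2 scale, a limit chosen after the distribution was seen. These were narrow in PS, with a median of 808 bp, and lay under broad RS regions with a median of 3519 bp, and 673 of them shared the RS region with another PS region. Among the 8346 kept promoters that shared none, 394 (4.72%) had such a change, with a median of 1.15. Outside promoters, 57.8% of kept regions lay at or above this limit.

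**Figure D2:**
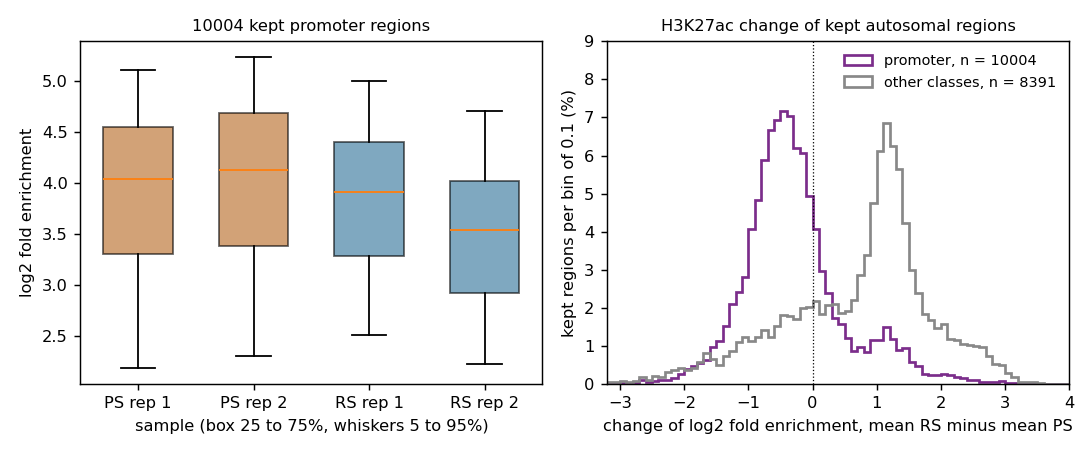
On the left, log2 fold enrichment of the 10004 kept promoter regions in each sample, with boxes from 25 to 75%, the median as a line and whiskers from 5 to 95%. On the right, the change of log2 fold enrichment, mean RS minus mean PS, as the percent of regions per bin of 0.1, for kept promoters and for the 8391 kept regions of other classes. Kept promoters have a main hump left of 0 and a small one near 1.2, where the main hump of the other classes lies.

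The change contains the PS value, so it is not independent of the strength in PS. In quartiles of kept promoters by PS fold enrichment, the median change was 0.21, -0.41, -0.48 and -0.67. Without shared RS regions it was -0.11, -0.45, -0.53 and -0.70. The RNA of their genes, which took no part in the choice, also ran with strength: the median level in PS was 2.24, 6.96, 12.5 and 23.9 RPKM (reads scaled for transcript length and library size) from the weakest to the strongest quartile. In RS it was 3.36, 5.57, 9.18 and 16.9 RPKM.

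The 5 kept promoters with the highest mean log2 fold enrichment over the 4 samples included those of RNA-binding proteins and of a nuclear RNA. The region of Hnrnpf, which encodes a splicing regulator, lay at chr6:117905271-117910016 and had fold enrichments of 56.8 and 60.3 in PS and 40.3 and 44.7 in RS. Hnrnph1, its close relative, had 46.9 and 52.1 in PS and 46.8 and 46.4 in RS, and the nuclear RNA gene Malat1 had 44.0 and 52.1 in PS and 46.4 and 45.9 in RS. Both differed little between the stages. The RNA helicase gene Ddx17 had 51.0 and 52.6 in PS and 40.7 and 40.1 in RS. The region of Rnf139, a ubiquitin ligase gene, had 45.3 and 56.5 in PS and 41.9 and 40.6 in RS. Its RNA nevertheless rose in the dKO, from 35.5 and 30.8 RPKM to 112 and 130 RPKM, a log2 fold change of 1.91 (SE 0.13, n = 2 per stage, edgeR adjusted p = 7.73e-06).

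The 5 widest kept regions spanned 11067 to 14924 bp. That of Mroh4, a gene of unknown function, spanned 14924 bp at chr15:74633152-74648075 and had fold enrichments of 55.6 and 65.8 in PS and 19.1 and 18.6 in RS. The region of Neat1, the RNA that organises paraspeckles, spanned 13182 bp with 35.8 and 34.5 in PS and 29.7 and 27.9 in RS. The regions of the predicted genes Gm10619 and Gm6567 spanned 12651 and 11067 bp. Neat1 RNA fell from 6.60 and 12.4 RPKM in PS to 0.697 and 1.87 RPKM in RS (log2 fold change -2.88, SE 0.45, edgeR adjusted p = 0.000628). A region of 11253 bp at chr16:10783391-10794643 held Socs1 and Tnp2 and lay next to the region of Prm1. In RS a single region of 21520 bp covered both, so Prm1 and Tnp2 took the same RS value.

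The 5 largest decreases of H3K27ac were of 6.34- to 7.66-fold, and RNA fell at 3 of these promoters. The zinc finger gene Zfp389 had fold enrichments of 42.4 and 47.1 in PS and 6.51 and 5.22 in RS. Its RNA fell, from 25.1 and 18.6 RPKM to 0.765 and 0.909 RPKM (log2 fold change -4.65, SE 0.30, edgeR adjusted p = 6.01e-06). Prok2, which encodes the secreted peptide prokineticin 2, had 42.0 and 49.9 in PS and 7.73 and 6.39 in RS, and its RNA fell from 97.04 and 91.2 RPKM to 12.04 and 12.4 RPKM. The uncharacterised 4930578E11Rik had 33.7 and 40.6 in PS and 4.88 and 5.81 in RS, and its RNA fell as well. The RNA did not follow at every such promoter. At 4930544G11Rik fold enrichment was 21.8 and 27.4 in PS and 3.66 and 4.06 in RS, while RNA was 161 and 174 RPKM in PS and 171 and 174 RPKM in RS. Sox11, a transcription factor gene, had 21.4 and 25.8 in PS and 3.66 and 3.48 in RS at an RNA level of 0.0639 to 0.221 RPKM.

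The largest increases lay under broad RS regions shared with other PS regions. The 5 were small second regions of Rab11b, Ywhaz (2 regions), Tmem82 and Tax1bp1, between 269 and 808 bp wide in PS, each under an RS region of 4921 to 8152 bp. That of Rab11b had 3.29 and 3.84 in PS and 38.7 and 26.1 in RS, but 7.73 and 6.97 in RS when only summits inside the PS region were read, a change of 1.05 in place of 3.16. Rab11b is also the gene of a stronger kept region, with 42.4 and 44.4 in PS, and its RNA fell from 9.87 and 10.7 RPKM to 2.89 and 3.07 RPKM. RNA of Tax1bp1 rose, from 68.9 and 60.1 RPKM to 161 RPKM in both RS samples. That of Tmem82 rose at a low level, from 0 and 0.132 RPKM to 0.896 and 1.29 RPKM. Ywhaz RNA was not called, with a log2 fold change of -0.51. Among kept promoters with RS summits inside the PS region and no sharing, a choice made after the values were seen, the largest increases were those of Fam183b, 4930431P03Rik, Adam21, Izumo3 and Map3k7cl. Izumo3, whose product belongs to the family of the sperm-egg fusion protein IZUMO1, had 4.53 and 3.29 in PS and 12.2 and 12.8 in RS, and its RNA rose from 7.92 and 7.48 RPKM to 71.9 and 62.2 RPKM. Adam21, a testis gene of the ADAM family, had 4.53 and 3.84 in PS and 15.1 and 12.2 in RS. Its RNA rose from 1.30 and 2.04 RPKM to 11.7 and 10.7 RPKM. At 4930431P03Rik, fold enrichment was 5.76 and 7.67 in PS and 26.0 and 17.996 in RS, with RNA at 0.376 to 1.56 RPKM over all 4 samples.

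At the edge of the rule, regions on both sides had like values. The kept regions of Chrnb2, Tcf7l1 and Prkrip1 shared only 4, 9 and 13 bp with an RS region, and their fold enrichments in PS were 3.29 to 7.13. The regions of Plcb3 and Smim4 and a second region of Dmrt1, 418 bp wide, were not kept, with gaps of 0, 5 and 11 bp to the nearest RS region, and had 3.70 to 6.58 in PS. Dmrt1 also had a kept region of 488 bp and so counts among the genes with kept promoters.

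Genes with kept promoters were mostly expressed in both stages. Of the 10728 genes, 10709 were in the RNA tables, and their median level was 9.98 and 9.78 RPKM in PS and 8.09 and 8.41 RPKM in RS, against 0.878 to 1.24 RPKM for all autosomal genes. Genes of promoter regions that were not kept had medians of 0.552 to 0.768 RPKM. A level of at least 1 RPKM was reached by 86.0 to 88.6% of the genes with kept promoters in a sample, and by 8744 of them in all 4. The count filter was passed by 10252, and 457 were under it.

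In the dKO, the RNA of these genes fell from PS to RS more often than it rose. By edgeR, at an adjusted p under 0.05 and a change of at least 1.5-fold, 3385 of the 10252 genes fell (33.0%), where 28.5% of all autosomal genes tested fell. By the same rule 2412 rose (23.5%), where 29.3% of all autosomal genes tested rose. The median log2 fold change was -0.21, against -0.04 for all autosomal genes tested. The 3915 tested autosomal genes without a kept promoter had 44.4% that rose and 16.8% that fell.

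The direction of H3K27ac in wild-type cells and of RNA in dKO cells went together. Of the 1374 tested genes whose kept promoter was higher in both RS samples, 1003 rose in RNA (73.0%) and 94 fell, with a median log2 fold change of 2.27. Of the 6079 whose promoter was lower in both RS samples, 699 rose (11.5%) and 2503 fell (41.2%), with a median of -0.45. Where the H3K27ac samples overlapped, the 2799 genes were nearly balanced, with 710 that rose and 788 that fell. These shares stand beside backgrounds of 29.3% and 28.5%, and the groups were not compared by a test.

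The relation was not even over the range of H3K27ac. In quintiles of the genes by H3K27ac change, the median RNA log2 fold change was -0.56, -0.46, -0.32, -0.12 and 1.25, so the first 4 quintiles lay close together and the last stood apart. Genes that rose made up 8.78%, 11.8%, 13.5%, 23.2% and 60.4%, and genes that fell 46.6%, 41.9%, 35.7%, 28.7% and 12.2%. Among genes whose strongest kept region had a change of at least 0.8, 605 of 654 tested genes rose in RNA (92.5%) and 14 fell. Their median level went from 4.84 and 6.77 RPKM in PS to 38.3 and 34.1 RPKM in RS. Where no RS region was shared, 350 of 368 such genes rose (95.1%) and 4 fell. Weaker second regions of a gene, such as that of Rab11b, whose RNA fell, are not in these counts. The counts thus do not cover all 1067 regions of the hump of increases. Over all 10252 genes, Pearson's r between the 2 changes was 0.55 and Spearman's rho 0.42. This is a correlation across genes, which share 8 libraries and are not independent replicates, and it sets H3K27ac of wild-type against RNA of dKO cells.

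**Figure D3:**
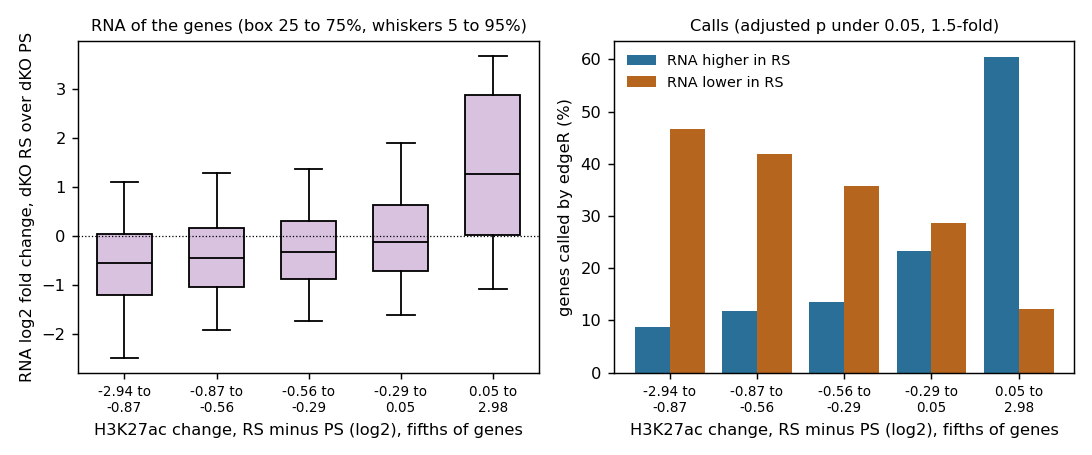
RNA of genes with kept promoters in quintiles of their H3K27ac change from PS to RS. On the left, RNA log2 fold change of dKO RS over dKO PS, with boxes from 25 to 75%, the median as a line and whiskers from 5 to 95%, and on the right the percent of genes called higher or lower by edgeR. The medians of the first 4 quintiles lie between -0.56 and -0.12 and that of the last at 1.25, where 60.4% of genes were called higher.

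The largest RNA changes among expressed genes with kept promoters ran from -5.14 to 4.77 on the log2 scale. Prm1 rose most, from 104 and 166 RPKM in PS to 3576 and 3640 RPKM in RS (log2 fold change 4.77, SE 0.23, edgeR adjusted p = 3.29e-06), and fold enrichment at its promoter was 8.23 and 8.22 in PS and 36.6 and 31.3 in RS. The RS values are those of the broad region shared with Tnp2, and with RS summits inside the Prm1 region alone the change of log2 fold enrichment was 1.15 in place of 2.04. It was followed by Car2, which encodes carbonic anhydrase 2 and rose from 1.91 and 2.41 RPKM to 54.1 and 59.7 RPKM. The H3K27ac samples of Car2 overlapped, with 4.53 and 6.58 in PS and 8.54 and 5.81 in RS. Next came the uncharacterised 1700042G07Rik, 1700027A15Rik and 1700020A23Rik, with log2 fold changes of 4.65, 4.62 and 4.41. The region of 1700027A15Rik was that of Tnp1.

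The largest falls were of 4921525O09Rik, Pou5f2, Zfp389, Piwil1 and Gm6567, all with lower H3K27ac in both RS samples. The RNA of 4921525O09Rik fell from 35.8 and 34.4 RPKM to 0.808 and 1.14 RPKM (log2 fold change -5.14, SE 0.20, edgeR adjusted p = 3.29e-06). Pou5f2, which encodes a POU domain transcription factor of male germ cells, fell from 73.8 and 89.8 RPKM to 2.00 and 3.35 RPKM. Fold enrichment at its promoter was 24.3 and 32.3 in PS and 8.14 and 5.22 in RS.

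**Figure D4:**
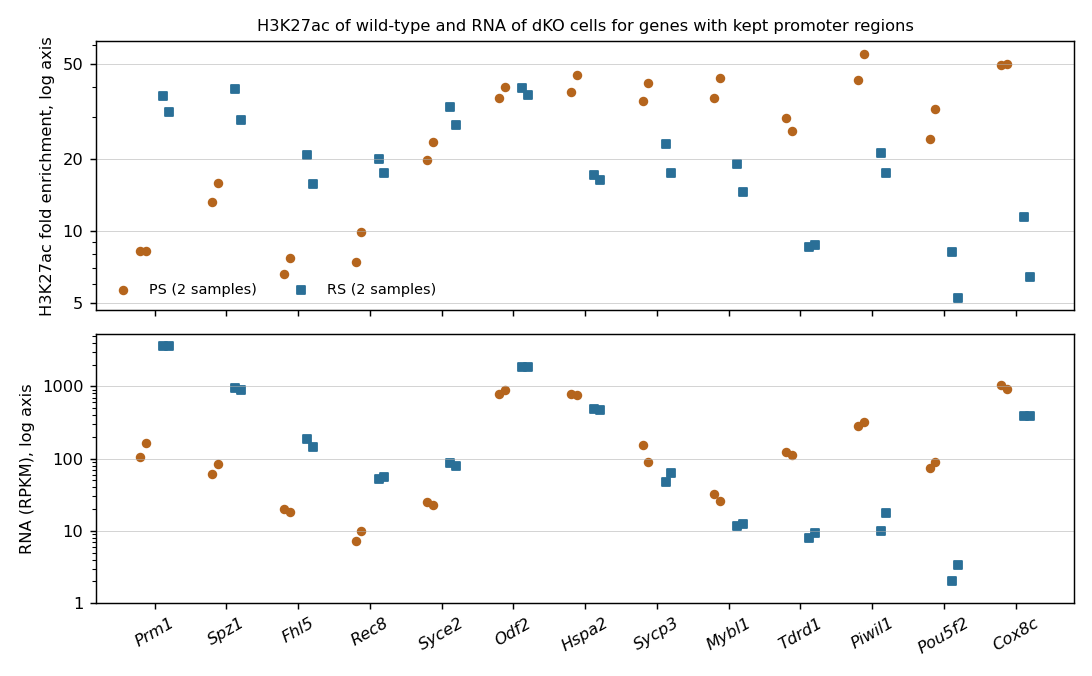
H3K27ac fold enrichment in wild-type cells (upper panel) and RNA in RPKM in dKO cells (lower panel), both on log axes, for 13 genes with kept promoters. The 13 genes were picked from those named in the text and include none that moved in opposite directions. Among all tested genes with kept promoters, 699 had lower H3K27ac in RS with RNA that rose, and 94 had the reverse. Each point is 1 sample, with 2 PS and 2 RS samples per gene and assay. The RS points lie above the PS points in both panels for Prm1, Spz1, Fhl5, Rec8 and Syce2 and below them in both for the 7 genes from Hspa2 to Cox8c, while for Odf2 the H3K27ac points overlap. The RS H3K27ac points of Prm1 come from a summit outside its own PS region.

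The gene lists below are given by counts, beside the 48.1% of autosomal genes in the RNA tables that had a kept promoter and the shares of calls given above. Some RS values came from an RS region shared with another PS region. This held for 6 of 15 genes of spermatid chromatin, 8 of 24 of the acrosome and 14 of 39 of the sperm tail. In the other lists it held for 0 to 12 genes, and among all kept promoters for 16.6%. Tnp1, Actl7b, Gapdhs, Smcp, Spz1 and Hdac11 were such genes. Of kept promoters that shared none, 10.7% were higher in RS, against 17.9% of all. Genes of spermatid chromatin lay in both directions. Of 17 listed genes 15 had a kept promoter, with H3K27ac higher in RS at 6 and lower at 6, and RNA rose for 7 and fell for 4. Tnp1, which encodes transition protein 1, had 9.47 and 8.22 in PS and 22.0 and 19.7 in RS, and its RNA rose from 108 and 170 RPKM to 2596 and 2876 RPKM (log2 fold change 4.34, SE 0.23, edgeR adjusted p = 3.49e-06). Tnp2 RNA rose from 82.2 and 163 RPKM to 2588 and 2392 RPKM, although the H3K27ac samples of its region overlapped. H2afz, which encodes the histone variant H2A.Z, went the other way in both measurements, with fold enrichments of 35.0 and 28.0 in PS and 15.9 and 13.9 in RS and RNA that fell from 186 and 184 RPKM to 65.9 in both RS samples. H3f3b, a gene of histone H3.3, fell from 244 and 190 RPKM to 135 and 116 RPKM with overlapping H3K27ac. Chd5 and Cdyl, a remodeller and a chromodomain protein of spermatids picked out here after their values were seen, rose in RNA by 3.07 and 3.17 on the log2 scale. Prm2 and Prm3 had no promoter region of their own by the rule.

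Genes of the acrosome and of fertilization had the highest share of RNA that rose among the gene lists with more than 1 gene tested. Of 27 listed genes 24 had a kept promoter, with H3K27ac higher in RS at 14 and lower at 8 and a median change of 0.61. RNA rose for 14 and fell for 1, with a median log2 fold change of 2.46. Actl7b, an actin-related gene of the spermatid head, had 15.6 and 19.7 in PS and 33.8 and 27.3 in RS, and its RNA rose from 144 and 160 RPKM to 620 and 466 RPKM. Actl9, a relative, rose from 63.5 and 76.1 RPKM to 317 and 286 RPKM (log2 fold change 2.15, SE 0.15, edgeR adjusted p = 7.62e-06) while its H3K27ac was lower in RS, at 28.9 and 24.4 after 35.0 and 39.5 in PS. The gene that fell was Gopc, a Golgi protein gene needed for the acrosome, from 24.0 and 20.5 RPKM to 3.21 and 3.88 RPKM. Its fold enrichment was 26.8 and 33.4 in PS and 14.2 and 11.6 in RS. Spam1 and Zp3r, a sperm hyaluronidase and a zona receptor gene, had a promoter region in RS alone and so were not kept regions.

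The sperm tail list was larger and more mixed. Of 42 genes 39 had a kept promoter, with H3K27ac higher at 18, lower at 12 and overlapping at 9, and RNA rose for 21 and fell for 5. Odf2, which encodes an outer dense fibre protein, was strongly marked in both stages, with 36.2 and 40.01 in PS and 39.9 and 37.2 in RS. Its RNA rose from 773 and 895 RPKM to 1831 and 1827 RPKM (log2 fold change 1.15, SE 0.12, edgeR adjusted p = 7.57e-05). Tcp11, a gene of sperm motility, rose from 678 and 797 RPKM to 1200 and 1240 RPKM with fold enrichments of 36.2 to 39.1 in all 4 samples. Rsph1, a radial spoke gene, fell from 1374 and 1490 RPKM to 495 and 507 RPKM, and its fold enrichment was 44.0 and 51.0 in PS and 20.3 and 17.996 in RS. Spag6, a gene of the axoneme central pair, fell from 243 and 247 RPKM to 141 and 157 RPKM. Odf1, Gapdhs and Smcp, picked out after their values were seen, had higher H3K27ac in both RS samples and rose in RNA by 3.72, 3.85 and 3.78 on the log2 scale.

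Of 16 genes of the synaptonemal complex and its axis 15 had a kept promoter, with H3K27ac higher at 3 and lower at 9, and RNA rose for 4 and fell for 4 (26.7% each), which is near the shares of all autosomal genes tested. Sycp3, which encodes a protein of the chromosome axis, had 35.0 and 41.7 in PS and 23.2 and 17.4 in RS, and its RNA fell from 156 and 90.3 RPKM to 47.5 and 63.4 RPKM. Sycp2, its partner, fell from 56.4 and 63.1 RPKM to 19.5 and 33.4 RPKM (log2 fold change -1.14, SE 0.22, edgeR adjusted p = 0.00223). Syce2 and Rec8 went up instead. Syce2, a gene of the central element, had 19.8 and 23.6 in PS and 33.0 and 27.9 in RS, and its RNA rose from 24.998 and 23.1 RPKM to 87.0 and 78.1 RPKM. Rec8 had 7.41 and 9.87 in PS and 19.9 and 17.4 in RS, and its RNA rose from 7.13 and 10.1 RPKM to 52.2 and 54.9 RPKM.

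Of 23 recombination genes in the files 21 had a kept promoter, with H3K27ac higher at 3 and lower at 11, and RNA rose for 3 and fell for 9. Spo11, which encodes the enzyme that cuts DNA at the start of recombination, fell from 61.7 and 72.9 RPKM to 27.7 and 26.1 RPKM with overlapping H3K27ac. Psmc3ip, a partner of the strand exchange proteins, had higher H3K27ac in RS, at 20.3 and 19.2 after 15.2 and 15.9, and yet its RNA fell from 143 and 126 RPKM to 89.4 and 69.0 RPKM (log2 fold change -0.72, SE 0.16, edgeR adjusted p = 0.00404). Dmc1, the meiotic recombinase gene, rose from 3.28 and 3.93 RPKM to 9.69 and 9.41 RPKM. Mcm8, a helicase gene, rose from 2.58 and 2.09 RPKM to 4.21 and 4.811 RPKM.

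Of 23 genes of the meiotic divisions 21 had a kept promoter, with H3K27ac lower in both RS samples at 19 (90.5%, against 56.1% of all kept promoters), overlapping at 2 and higher at 0, and a median change of -0.75. RNA rose for 5 (23.8%, against 23.5% of all genes with kept promoters) and fell for 10. Hspa2, a chaperone gene needed for meiosis, had 38.3 and 44.9 in PS and 17.1 and 16.3 in RS, and its RNA fell from 796 and 771 RPKM to 479 and 474 RPKM. Nek2, a centrosomal kinase gene, fell from 163 and 156 RPKM to 67.6 and 70.3 RPKM. Plk1 and Ccnb1 rose despite lower H3K27ac. Plk1, a kinase gene of division, had 10.3 and 10.4 in PS and 6.51 and 5.81 in RS, and its RNA rose from 34.7 and 39.9 RPKM to 68.4 and 69.1 RPKM. Ccnb1, which encodes cyclin B1, rose from 12.2 and 11.6 RPKM to 22.9 and 25.3 RPKM.

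The piRNA pathway, which silences transposons and acts on the RNA of meiotic germ cells, had the lowest median change of the gene lists in both measurements. Of 21 genes in the files 19 had a kept promoter, with H3K27ac lower at 16 and higher at 1 and a median change of -0.91. RNA fell for 11 and rose for 2, with a median log2 fold change of -1.04. Piwil1, which encodes the PIWI protein MIWI, had 42.8 and 55.4 in PS and 21.2 and 17.4 in RS, and its RNA fell from 286 and 326 RPKM to 9.91 and 17.6 RPKM (log2 fold change -4.45, SE 0.26, edgeR adjusted p = 4.48e-06). Tdrd1, a Tudor protein gene of the germ granule, had 29.6 and 26.3 in PS and 8.54 and 8.71 in RS, and its RNA fell from 122 and 112 RPKM to 8.00 and 9.44 RPKM. The genes that rose were Gtsf1, a PIWI partner gene with higher H3K27ac in RS, and Papd4, a poly(A) polymerase gene. Gtsf1 rose from 227 and 216 RPKM to 422 and 334 RPKM, with fold enrichments of 13.6 and 17.0 in PS and 24.8 and 22.1 in RS.

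Of 19 germ cell transcription factor genes 16 had a kept promoter, with H3K27ac higher at 3 and lower at 10, and RNA rose for 8 and fell for 3. The 3 with higher H3K27ac, namely Spz1, Fhl5 and Klf17, also rose in RNA. Spz1, which encodes a spermatogenic bHLH-Zip factor, had 13.2 and 15.9 in PS and 39.5 and 29.0 in RS, and its RNA rose from 60.5 and 85.4 RPKM to 944 and 887 RPKM (log2 fold change 3.69, SE 0.19, edgeR adjusted p = 3.43e-06). Fhl5 had 6.58 and 7.67 in PS and 20.8 and 15.7 in RS, and its RNA rose from 20.2 and 18.2 RPKM to 188 and 147 RPKM. Tcfl5, a bHLH gene of PS, fell from 204 and 211 RPKM to 109 and 108 RPKM. Mybl1, the gene of the meiotic regulator A-MYB, had 36.2 and 43.8 in PS and 19.1 and 14.5 in RS, and its RNA fell from 32.6 and 25.8 RPKM to 11.7 and 12.31 RPKM.

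Of 18 spermatogonial genes 8 had a kept promoter (44.4%), a share near the 48.1% of all autosomal genes. H3K27ac was higher in RS at 1 and lower at 5, and RNA rose for 3 and fell for 2. Those that rose were Dmrt1, Zbtb16 and Etv5, all of them transcription factor genes at low levels. Dmrt1 rose from 6.78 and 4.28 RPKM to 10.3 and 9.24 RPKM (log2 fold change 0.87, SE 0.23, edgeR adjusted p = 0.0105), with fold enrichments of 5.35 and 6.03 in PS and 6.10 and 5.22 in RS. Zbtb16 and Etv5, the latter picked out after its values were seen, rose by 0.93 and 1.38 on the log2 scale at 0.306 to 1.84 RPKM. Id4, which marks spermatogonial stem cells, had 17.7 and 24.1 in PS and 6.51 and 4.64 in RS, and its RNA fell from 26.1 and 20.4 RPKM to 2.73 and 2.53 RPKM. Tex101, a germ cell surface gene, fell from 235 and 231 RPKM to 53.5 and 96.8 RPKM. Of 26 genes of testicular somatic cells only Inha, which encodes the inhibin alpha subunit, had a kept promoter. It was weak, with fold enrichments of 7.41 and 10.4 in PS and 4.48 and 5.22 in RS, and its RNA rose from 5.10 and 3.02 RPKM to 7.47 and 5.80 RPKM.

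Of 26 genes of histone acetyltransferases, bromodomain proteins and deacetylases, not all of which act on H3K27, 25 had a kept promoter. H3K27ac was lower at 16 and higher at 4, and RNA fell for 10 and rose for 4. Ep300 and Crebbp, the genes of p300 and CBP picked out for that role, were not called, with log2 fold changes of 0.15 and 0.56. For Ep300 the edgeR adjusted p was 0.39. Crebbp had an edgeR adjusted p of 0.0084 and fell short only of the fold change required for a call. Ep300 had 34.6 and 36.2 in PS and 41.5 and 36.6 in RS, and the samples of Crebbp overlapped. Kat7, an acetyltransferase gene best known for other histone residues, had 31.3 and 34.5 in PS and 28.9 and 19.2 in RS, and its RNA fell from 121 and 120 RPKM to 32.0 and 36.0 RPKM (log2 fold change -1.78, SE 0.12, edgeR adjusted p = 6.91e-06). Kat5, another, fell from 69.1 and 82.0 RPKM to 37.4 and 34.6 RPKM. The deacetylase gene Hdac11 rose, from 0.809 and 3.54 RPKM to 7.37 and 20.8 RPKM, with a wide spread between replicates. Its fold enrichment was 11.9 and 10.96 in PS and 28.9 and 23.8 in RS.

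Of 22 genes of the ubiquitin and DNA damage response in which RNF8 acts, 21 had a kept promoter, with H3K27ac lower at 11 and higher at 3, and RNA fell for 10 and rose for 5. Rnf8 itself, at chr17:29613770-29617909, had 30.9 and 40.6 in PS and 18.7 and 15.7 in RS of wild-type cells. The remaining reads on the mutated gene fell from 4.02 and 4.88 RPKM to 2.15 and 2.09 RPKM in the dKO (log2 fold change -1.03, SE 0.25, edgeR adjusted p = 0.0066). Mdc1, whose product brings RNF8 to chromatin, fell from 98.4 RPKM in both PS samples to 27.2 and 28.1 RPKM, and Atr, a kinase gene of the sex body, from 132 and 94.5 RPKM to 33.7 and 44.7 RPKM. Both had lower H3K27ac in both RS samples. Ube2n, the gene of an E2 enzyme that works with RNF8, had 35.4 and 37.8 in PS and 44.3 and 39.5 in RS and rose from 14.0 and 10.9 RPKM to 39.4 and 34.1 RPKM. Usp16, which encodes a deubiquitinase of histone H2A, rose from 31.1 and 37.7 RPKM to 62.6 and 66.3 RPKM with lower H3K27ac.

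Most housekeeping genes had a kept promoter region, but so did most genes of the germ cell lists above other than the spermatogonial one. All 76 cytoplasmic ribosomal protein genes had one, as did 35 of 36 proteasome genes (97.2%). It held for 29 of 32 genes of respiratory chain complex IV, cytochrome c and ATP synthase (90.6%). Those germ cell lists ran from 84.2% for transcription factors to 93.8% for the synaptonemal complex and axis. For the ribosomal proteins H3K27ac was lower at 39 (51.3%, against 56.1% of all kept promoters), overlapping at 31 and higher at 6. RNA fell for 19 of the 76, a smaller share than the 33.0% of all genes with kept promoters, and rose for 1. Rps15 and Rpl4, genes of the small and the large subunit, had the highest RNA among those that fell. Rps15 had 25.1 and 27.4 in PS and 17.1 and 13.9 in RS, and its RNA fell from 349 and 343 RPKM to 169 and 178 RPKM (log2 fold change -0.96, SE 0.12, edgeR adjusted p = 0.000186). Ribosomal protein genes have many processed copies, and how reads were divided between a gene and its copies was not tested here, so their levels are uncertain.

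For the proteasome, H3K27ac was lower at 20 (57.1%, against 56.1% of all kept promoters) and higher at 1. RNA fell for 13 (37.1%, against 33.0% of all genes with kept promoters) and rose for 2. The genes that rose were Psma6 and Psme4, the latter being the gene of the spermatid activator PA200. Psma6 rose from 125 and 110 RPKM to 456 and 385 RPKM, although its fold enrichment was 21.4 and 23.0 in PS and 9.36 and 7.55 in RS. Psme4 rose from 116 and 96.2 RPKM to 161 and 178 RPKM (log2 fold change 0.72, SE 0.12, edgeR adjusted p = 0.00103). In the respiratory list RNA fell for 12 of 28 tested genes and rose for 0. Cox8c, the testis form of a complex IV subunit, had 49.4 and 49.9 in PS and 11.4 and 6.39 in RS, and its RNA fell from 1032 and 929 RPKM to 392 and 384 RPKM.

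**Figure D5:**
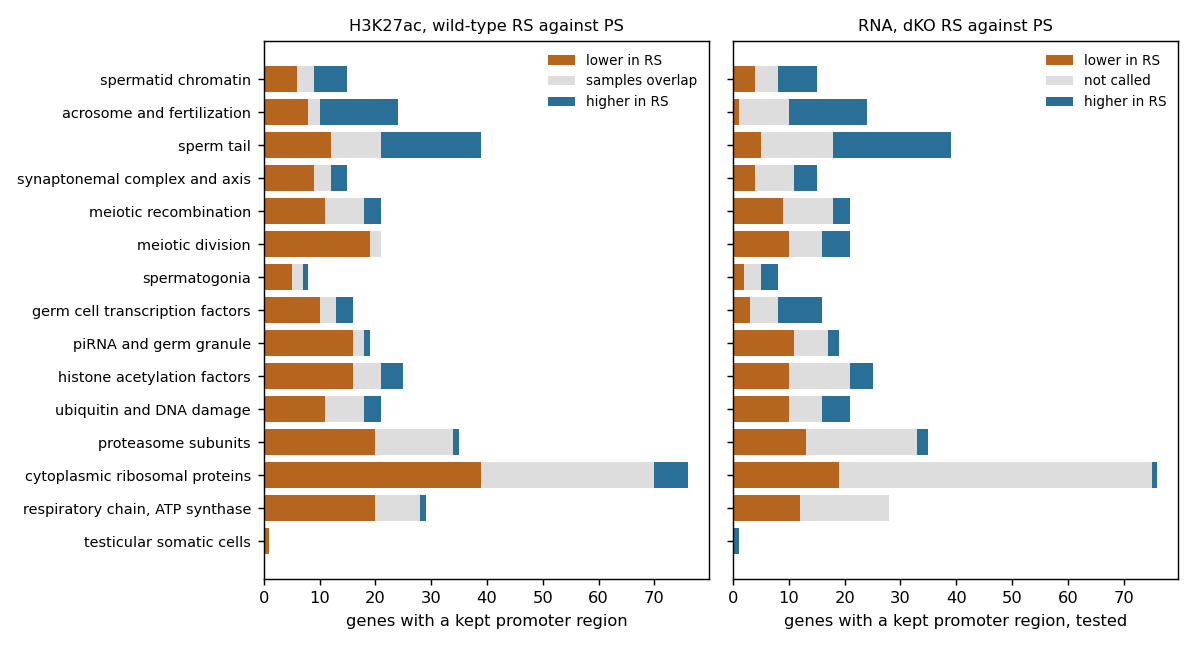
Number of genes with a kept promoter in each gene list, split on the left by wild-type H3K27ac in RS against PS and on the right by edgeR call of dKO RNA in RS against PS. Acrosome and sperm tail genes hold the most increases in RNA, 14 and 21, while the meiotic division list has 19 of 21 promoters lower in H3K27ac.

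Many genes did not follow their promoter. Besides the genes named above, the most highly expressed genes with lower H3K27ac in both RS samples and RNA that rose were Gm5617, 4930453N24Rik, Gsg2, Pgk2 and Papolb. Pgk2, which encodes the testis phosphoglycerate kinase, had 18.5 and 20.3 in PS and 17.9 and 11.03 in RS, and its RNA rose from 119 and 134 RPKM to 484 and 492 RPKM (log2 fold change 1.99, SE 0.13, edgeR adjusted p = 5.64e-06). Papolb, a testis poly(A) polymerase gene, rose from 221 and 229 RPKM to 391 and 374 RPKM. The opposite case was led by Rpl7, Psmc3ip, Tusc3, Chd4 and Pdha2. Pdha2, the testis form of a pyruvate dehydrogenase subunit, had 27.2 and 32.9 in PS and 35.8 and 33.1 in RS, and its RNA fell from 105 and 91.1 RPKM to 52.1 and 44.8 RPKM.

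A kept region could also serve 2 genes that did not move together. There were 1464 kept regions that named more than 1 gene (14.6%), and 1422 named exactly 2, of which 1199 had both genes tested. Both genes fell at 184 and both rose at 93, while 1 rose and the other fell at 74. At 382 regions only 1 gene fell and at 184 only 1 rose, with the other gene not called.

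The promoters of these genes held more CpG than autosomal promoters at large. RefSeq windows from 250 bases before to 50 bases after the start were found for 8601 of the 10728 genes, and 8214 of the windows overlapped the kept region (95.5%). The median GC content was 61.3% and the ratio of observed to expected CpG 0.804, against 53.0% and 0.389 for 31396 autosomal windows. Genes of promoter regions that were not kept had a window for only 74.8%, too few for the same comparison, so none of these features is shown to be particular to kept promoters. A GC box was present in 66.0%, against 36.0% of autosomal windows, and an ETS motif (CCGGAAG) in 21.5% against 9.004%. An NRF1 motif (GCGCATGC) was present in 6.62% against 2.70%, a CRE (TGACGTCA) in 3.88% against 1.83% and a YY1 motif in 5.31% against 2.75%. The CCAAT box differed less, at 39.7% and 37.3%, and the TATA box (TATAAA) was less frequent, at 5.94% against 13.6%. All motifs were searched as letters on both strands, and a match is no evidence of a bound site.

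The motif content of the promoters varied with the H3K27ac change. From the quintile with the lowest change to that with the highest, the MYB motif was present in 20.7%, 16.1%, 12.5%, 12.01% and 12.7% of promoters, against 12.2% of all autosomal windows. An RFX motif (GTTGCCA) ran the other way, at 2.49%, 3.86%, 4.45%, 5.01% and 8.78%, against 4.41%. The GC box was least frequent in the last quintile, at 52.2% against 68.0 to 71.9% in the others, and the CpG ratio there was 0.677. By the RNA call, RFX was in 6.88% of promoters of genes that rose, 3.19% of genes that fell and 5.197% of genes not called. The ETS motif was in 13.5%, 26.3% and 22.6% of them, and NRF1 in 3.80%, 8.46% and 6.92%. These shares describe the letters only and were not tested.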

How the data were processed

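The authors aligned H3K27ac ChIP-seq reads to mm10 with Bowtie and called intervals in each sample with MACS2 (versions 1.1.1 and 2.1.0.20140616 per the labels; the methods name other versions). The deposited lists give each summit's pileup signal, its fold enrichment (a ratio to a background constant of the sample) and -log10 p and q values against that background, with the authors' class and nearest RefSeq gene of each interval. The lowest deposited -log10 q was 1.38 to 1.97, and read totals are not given in the sources used here. RNA was amplified (NuGEN Ovation) and made into libraries without strand (Nextera XT), so overlapping and antisense genes cannot be told apart. The authors aligned RNA reads with STAR 2.4.2a, kept unique alignments, and split them between RefSeq isoforms by expectation-maximization. The deposited read counts are not normalized, and the RPKM values were scaled by the authors for length and library size.

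Each region took its highest fold enrichment per sample, and in RS the highest over the overlapping RS regions; the change is the difference of mean log2 values. A gene with several regions took the one with the highest mean. Isoforms were summed to genes. The 14647 genes that reached 10 counts in 2 or more samples were tested with edgeR's quasi-likelihood test after TMM, at a Benjamini-Hochberg adjusted p of 0.05 and a 1.5-fold change. With 2 against 2 samples, an exact two-sided permutation test cannot go below 0.3333. Intervals and tests were checked on simulated data. The genes named were the 5 regions highest, widest, and with the largest rise or fall, the 5 largest RNA changes each way at 10 RPKM or more, regions at the edge of the rule, list genes of highest RPKM in each direction, and Rnf8. A list gene that this rule would name is not reported here. Regions, lists and tests were chosen with earlier results of these data known. Alternatives were stricter q and enrichment thresholds, a larger overlap, regions of either replicate, equally long lists, other promoter definitions, another normalization or no count filter, DESeq2 1.42.0, limma 3.58.1 on log2(RPKM + 1), a replicate block, and dropping each sample in turn. R 4.3.3 with edgeR 4.0.16 and Python 3.11.15 with pandas 2.3.3 were used.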

Additional observations from a re-analysis of the deposited data

How the results depend on the processing

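The share of promoters kept, the median H3K27ac change and the counts of RNA calls kept their direction under every alternative run, and no result reversed. The count of kept promoters higher in both RS samples was 1787, between 1850 and 2993 with 1 sample left out, the highest without RS replicate 2, and 889 of the 8346 that share no RS region. These were chosen after seeing the data, as was leaving out a sample or shared regions for the correlation. The correlation of the 2 changes (0.55) was 0.61 over 5805 genes of at least 10 RPKM, 0.53 for genes with 1 kept region, 0.49 without shared RS regions and 0.507 to 0.545 with 1 sample left out. With 1 sample left out, the kept share was 78.8 to 94.7% and the median change -0.57 to -0.24. RNA that rose numbered 2112 to 2528 genes and RNA that fell 2497 to 3399, where the lone sample of a stage is assumed to vary like the others. DESeq2 called 2206 and 3118 genes, and limma 2038 and 3263. Centring each sample on all kept regions moved the change by 0.305 and gave 1355 higher and 7676 lower promoters. For H3K27ac the replicate block set each RS sample against the PS sample of its number. It gave a share of 83.6%, a median change of -0.32, 1934 higher and 5942 lower promoters, 2474 and 3429 genes that rose and fell, and a correlation of 0.52. RNA samples of the same number deviated together with a correlation of 0.22, but only 2 numbers exist and no label ties them to a mouse. Of 888 values of 90 named genes under the alternatives, 39 lost the call at adjusted p under 0.05 and 1.5-fold and 1 gained it. No gene called in the main fit reversed. Depth limits weak regions most, since 1 fragment was worth up to 0.581 of fold enrichment.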
